A study of Danio rerio with 8 samples.

Results

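The transcripts described here encode enzymes that build the characteristic lipids of the myelin sheath, or supply the material for them. The rule takes them by gene name and uses no measured value, although they were chosen with earlier results of these data known. They are *ugt8*, *fa2h*, *gal3st1a*, *gal3st1b*, *aspa*, *elovl1a*, *elovl1b* and *elovl7a*. All 8 names were found among the 22871 genes counted, and all 8 were among the 21140 genes with enough counts for a test.

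Myelin is a membrane stack wrapped around axons, made by oligodendrocytes (OLs) in the central nervous system and by Schwann cells in peripheral nerves. Its lipid fraction is rich in galactosylceramide and in the sulfated form, sulfatide, and many of their fatty acids are very long and carry a hydroxyl group. In mammals, ceramide galactosyltransferase (UGT8) adds the sugar to ceramide, fatty acid 2-hydroxylase (FA2H) makes the hydroxylated fatty acids, galactosylceramide sulfotransferase (GAL3ST1) turns galactosylceramide into sulfatide, the elongases ELOVL1 and ELOVL7 lengthen fatty acids, and aspartoacylase (ASPA) releases acetate from *N*-acetylaspartate (NAA) for lipid synthesis. The products are taken apart again in the lysosome, where several of the enzymes depend on the saposins, small activator proteins cut from the precursor that *psap* encodes.

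Whole brains of TuAB zebrafish were compared at 4 months post-fertilization (mpf), an age at which the study describes *psap* knockout (KO) fish as symptomatic. The WT group consisted of siblings with neither a mutation nor a treatment, and the *psap* KO group of untreated fish homozygous for a net insertion in an early coding exon that brings in a premature stop codon. The mutant line goes back to a single F1 fish. Each of the 8 libraries, 4 per genotype, was made from total RNA of 3 pooled brains, so differences between single fish and between brain regions are not seen. The *psap* transcript was counted at 378 ± 30.5 CPM in WT and 412.5 ± 29.1 CPM in *psap* KO brains (SD, n=4 each; CPM, the count relative to the scaled library size), and the log2 fold change was 0.13 (SE 0.0756, adjusted p = 0.206 in edgeR's quasi-likelihood test). Total counts therefore do not show which allele a library carries.

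The libraries held 15332163 to 23480758 counts in WT and 17562422 to 25127578 in *psap* KO brains. Replicates 1 and 4 of the *psap* KO group differed more from each other than any other pair of replicates, as measured by chi-square over its degrees of freedom (30.1, against 5.27 to 14.3 between WT pairs). The first of them was the shallowest and the other the deepest *psap* KO library. Replicate 1 of the WT group stood apart in skeletal muscle genes, which summed to 812 CPM there and to 43.2 to 115 CPM elsewhere. Markers of other cells also differed between the genotypes. All 23 tested genes of microglia and macrophages were higher in *psap* KO brains, and they summed to 3454 to 4247 CPM there, against 529 to 660 CPM in WT. Of 13 tested astroglial genes 9 were higher and 1 was lower, with sums of 5067 to 5918 and 6442 to 7626 CPM. Of 16 neuronal genes 1 was higher and 13 were lower, with sums of 6288 to 6531 and 4416 to 4716 CPM. Of 10 endothelial genes 5 were higher and 5 did not pass, with sums of 264 to 308 and 362 to 444 CPM. These markers moved together with every comparison of the genotypes below, and their part in the results was not tested. In whole brain, fewer cells of a type and less RNA per cell cannot be told apart.

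Of the 8 enzyme genes, *elovl1b* rose in *psap* KO brains and the other 7 did not pass the test in either direction. It was also the only one whose libraries did not overlap between the genotypes. Over all genes tested, 22.3% were higher and 18.5% were lower (adjusted p under 0.05), and 40.3% had libraries that did not overlap. Against these shares, 1 call among 8 genes is no result about the enzymes as a group. None of the other 7 passed an unadjusted p of 0.05 in edgeR, and none passed the adjusted threshold with DESeq2 or limma-voom. The median log2 fold change of the 8 enzyme genes was 0.25, and that of all genes tested was 0.02. The split of all calls was 4720 higher and 3903 lower. It moved to 1888 higher and 5464 lower when libraries were scaled to the median level of 20 myelin protein genes. That scaling, chosen after the data were seen, shifted the median log2 fold change of all genes to -0.32.

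**Figure D1:**
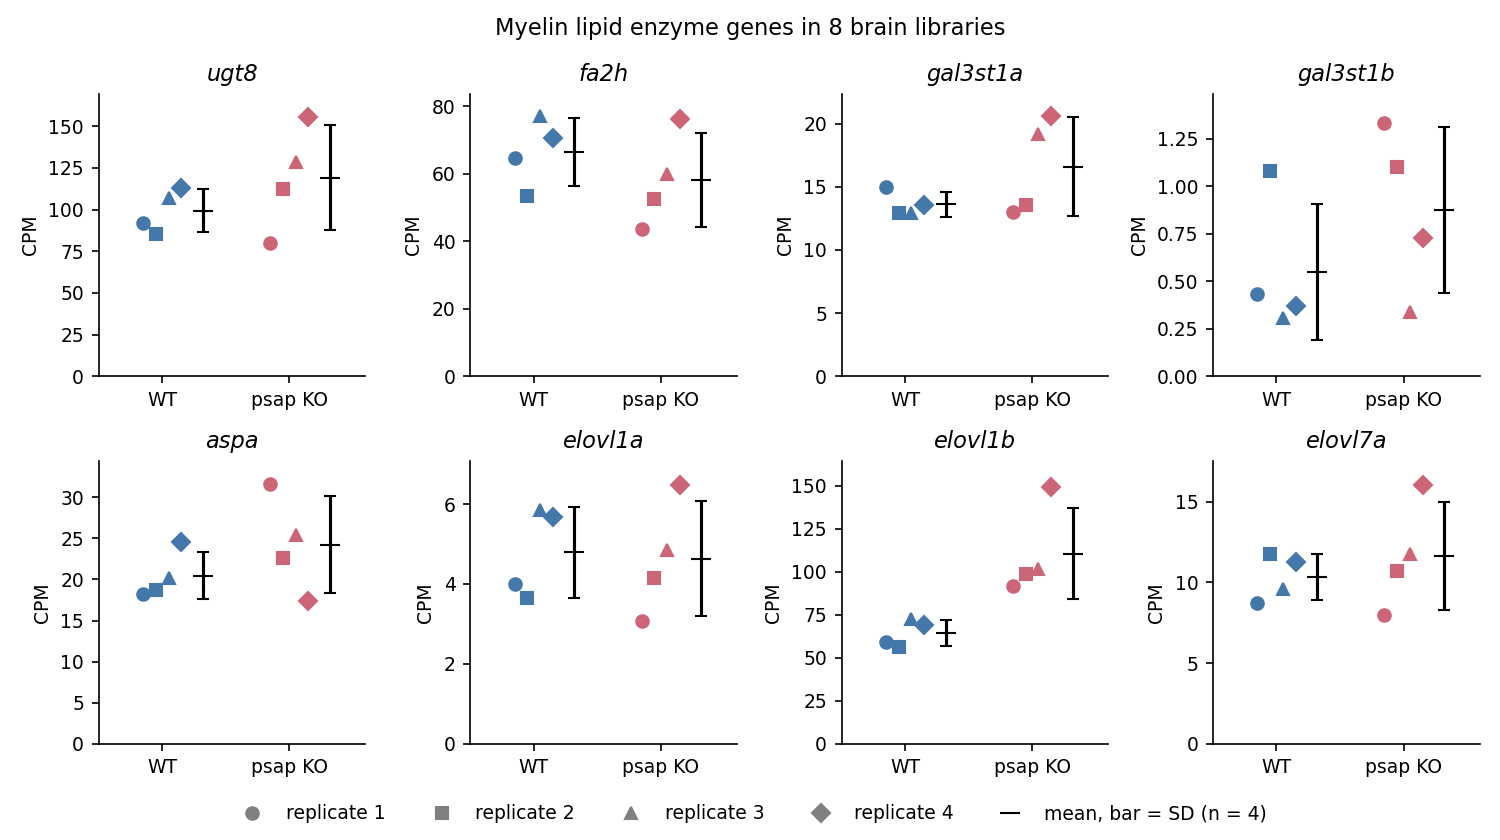
CPM of the 8 enzyme genes (vertical axes from 0, a separate scale for each gene) in the 4 WT (blue) and 4 *psap* KO (red) libraries. Marker shape gives the replicate number, and the bars give the mean and SD. Only for *elovl1b* do all *psap* KO libraries (91.8 to 150 CPM) lie above all WT libraries (56.5 to 72.4 CPM).

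*ugt8* (ENSDARG00000037455), for the enzyme that makes galactosylceramide, is annotated at 20556067 to 20593778 of chromosome 1, minus strand (no build is named in the annotation used, and the study's methods name Zv10). WT replicates 1 to 4 had 92.0, 85.3, 107 and 113 CPM. *psap* KO replicates 1 to 4 had 80.1, 113, 129 and 156 CPM. The *psap* KO group held both the lowest and the highest library, so the genotypes overlapped, and its SD was 31.5 CPM against 12.8 CPM in WT (n=4 each). *psap* KO over WT gave a log2 fold change of 0.26 (SE 0.185, 95% interval -0.16 to 0.68, adjusted p = 0.293 in edgeR's test), and the exact two-sided permutation test of the mean log2 CPM gave p = 0.371. Without *psap* KO replicate 1 the log2 fold change was 0.41 and passed the threshold (adjusted p = 0.0231 in the same edgeR test). With single libraries left out in turn it ranged from 0.11 to 0.41 (adjusted p = 0.0231 to 0.667 in that test). The estimate thus depended on single libraries in both directions.

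*fa2h* (ENSDARG00000090063), for the fatty acid hydroxylase, is annotated at 13558992 to 13614863 of chromosome 25, minus strand. Its WT libraries had 64.7, 53.4, 77.1 and 70.5 CPM. Its *psap* KO libraries had 43.6, 52.6, 59.9 and 76.3 CPM. The mean was lower in *psap* KO than in WT brains, 58.1 ± 13.9 against 66.4 ± 10.05 CPM (SD, n=4 each), yet replicate 4 of the *psap* KO group was nearly as high as the highest WT library. This amounts to a log2 fold change of -0.19 (SE 0.168, 95% interval -0.57 to 0.18, adjusted p = 0.397 in edgeR's test; exact permutation p = 0.314).

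The sulfotransferase step has a pair of zebrafish genes. *gal3st1a* (ENSDARG00000062711; chromosome 5, plus strand, 12888260 to 12906542) had 15.01, 12.96, 12.93 and 13.6 CPM in the WT libraries. In the *psap* KO libraries it had 12.97, 13.6, 19.2 and 20.6 CPM. The WT libraries were close together, with a coefficient of variation of 7.15%, whereas the *psap* KO libraries split into a low pair within the WT range and a high pair above it. A log2 fold change of 0.29 was estimated (SE 0.149, 95% interval -0.04 to 0.61, adjusted p = 0.144 in edgeR's test, exact permutation p = 0.257). Without *psap* KO replicate 1 the estimate was 0.39 and passed the threshold (adjusted p = 0.0452 in edgeR's test). With single libraries left out in turn it ranged from 0.16 to 0.39 (adjusted p = 0.0452 to 0.377 in the same test).

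The paralog *gal3st1b* (ENSDARG00000078245; chromosome 10, minus strand, 1722125 to 1733937) was close to the limit of detection. The WT libraries held 8, 16, 7 and 8 counts and the *psap* KO libraries 24, 25, 7 and 19 counts. In CPM the WT values were 0.432, 1.08, 0.308 and 0.372, and those of *psap* KO were 1.34, 1.1, 0.340 and 0.728. At this depth a difference was not detected. The estimated log2 fold change was 0.72, with a wide 95% interval of -0.35 to 1.80 (SE 0.495, adjusted p = 0.269 in edgeR's test; exact permutation p = 0.286).

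*aspa* (ENSDARG00000005154; chromosome 5, plus strand, 62340799 to 62356975), for the enzyme whose loss causes Canavan disease in humans, had 18.3, 18.8, 20.2 and 24.6 CPM in WT brains. The *psap* KO libraries had 31.6, 22.6, 25.4 and 17.4 CPM. Replicate 4, in which most of the enzyme genes were highest, was the lowest *psap* KO library for *aspa*, and it lay below all WT libraries. Over the groups the log2 fold change was 0.24 (SE 0.167, 95% interval -0.13 to 0.61, adjusted p = 0.287 in edgeR's test; exact permutation p = 0.343). Without *psap* KO replicate 4 it was 0.37 and passed the threshold (adjusted p = 0.0397 in edgeR's test). With single libraries left out in turn it ranged from 0.09 to 0.37 (adjusted p = 0.0397 to 0.664 in the same test).

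*elovl1b* (ENSDARG00000103735; chromosome 11, minus strand, 13094179 to 13152524), a zebrafish gene for the very long chain fatty acid elongase ELOVL1, was the enzyme gene that rose. Its WT libraries had 59.2, 56.5, 72.4 and 69.3 CPM. Its *psap* KO libraries had 91.8, 98.6, 102 and 150 CPM. The mean rose from 64.4 ± 7.71 to 110 ± 26.4 CPM (SD, n=4 each), 1.72-fold, and the lowest *psap* KO library exceeded the highest WT library. This is a log2 fold change of 0.78 (SE 0.153, 95% interval 0.44 to 1.12, adjusted p = 0.00248 in edgeR's test), and 0.0286 was the p of the exact two-sided permutation test, which cannot be smaller with 4 libraries in each group. Without *psap* KO replicate 4, the highest library, the log2 fold change was 0.60 (adjusted p = 0.000127 in edgeR's test). Scaled to the median level of the myelin protein genes, which the genes of middle level set, it was 0.40 and did not pass (adjusted p = 0.0737 in edgeR's test).

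Its paralog *elovl1a* (ENSDARG00000099960; chromosome 2, plus strand, 19163965 to 19215112) did not follow. The WT libraries had 4.00, 3.64, 5.85 and 5.67 CPM. The *psap* KO libraries had 3.06, 4.14, 4.86 and 6.47 CPM. The means were within the spread of the replicates, at 4.79 ± 1.13 and 4.63 ± 1.43 CPM (SD, n=4 each), and the log2 fold change was -0.05 (SE 0.235, 95% interval -0.56 to 0.46, adjusted p = 0.888 in edgeR's test; exact permutation p = 0.771).

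*elovl7a* (ENSDARG00000069279; chromosome 8, plus strand, 16758304 to 16769798) encodes an elongase of the ELOVL7 type. It had 8.69, 11.7, 9.59 and 11.3 CPM in WT libraries. In *psap* KO libraries it had 7.96, 10.7, 11.8 and 16.0 CPM. As for *ugt8*, the *psap* KO group held both the lowest and the highest library. Here the log2 fold change was 0.18 (SE 0.188, 95% interval -0.23 to 0.59, adjusted p = 0.476 in edgeR's test; exact permutation p = 0.6). The whole span of *elovl7a*, 11495 bases, lies within a gene on the opposite strand, and *elovl1a* shares 17605 bases with an antisense gene. For *ugt8* and *elovl1b* the shared stretches are 126 and 467 bases. These overlapping genes are not among the genes counted, so their own levels cannot be given. The library kit keeps the strand, but whether the counting used it is not given in the sources used here, so the counts of *elovl7a* and *elovl1a* may include reads of the opposite strand.

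**Figure D2:**
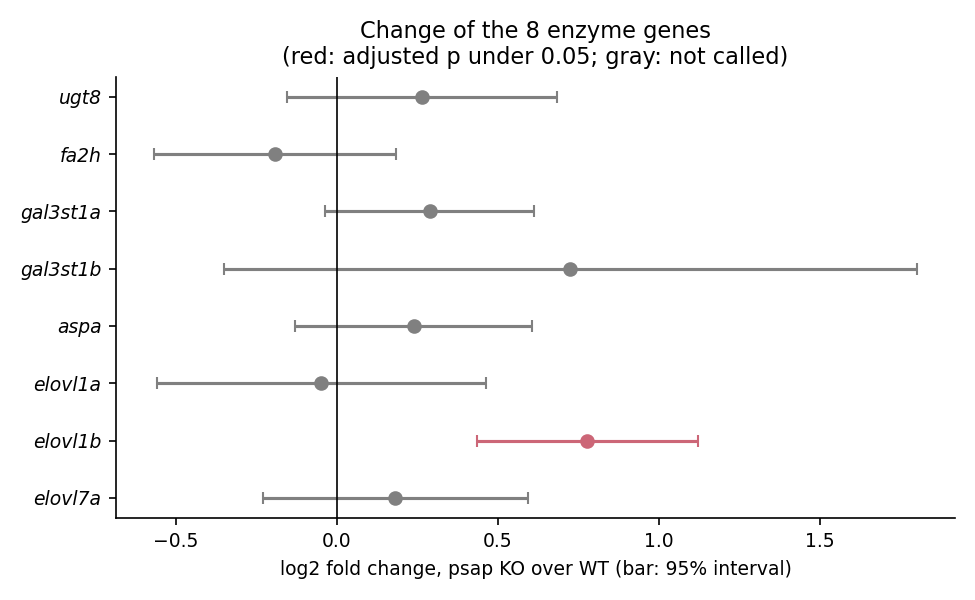
Log2 fold change (*psap* KO over WT) (horizontal axis) for each enzyme gene, with its 95% interval. Of the 8 intervals only that of *elovl1b* (red, 0.44 to 1.12) lies apart from 0, and *gal3st1b*, the gene with the fewest counts, has the widest.

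Several of the enzyme genes shared their pattern over the *psap* KO libraries. Of the 8 genes, 6 (*ugt8*, *fa2h*, *gal3st1a*, *elovl1a*, *elovl1b* and *elovl7a*) were highest in *psap* KO replicate 4 and lowest in *psap* KO replicate 1, which was the case for 3325 of 21140 genes tested, or 15.7%. For *ugt8* the deviations from the *psap* KO mean were -0.53 and 0.42 on the log2 scale in replicates 1 and 4. For *elovl1a* they were -0.53 and 0.52. The pair of libraries also differed in depth, and the part of depth in this pattern was not tested. The median of the myelin protein genes was highest in the same library, at 6.77 log2 CPM, and lowest in *psap* KO replicate 1, at 6.06. *aspa* had the reverse order, with 0.41 in replicate 1 and -0.44 in replicate 4, and *gal3st1b* followed neither. The coefficient of variation of the enzyme genes other than *gal3st1b* was 23.5 to 30.9% among *psap* KO libraries and 7.15 to 23.6% among WT libraries.

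**Figure D3:**
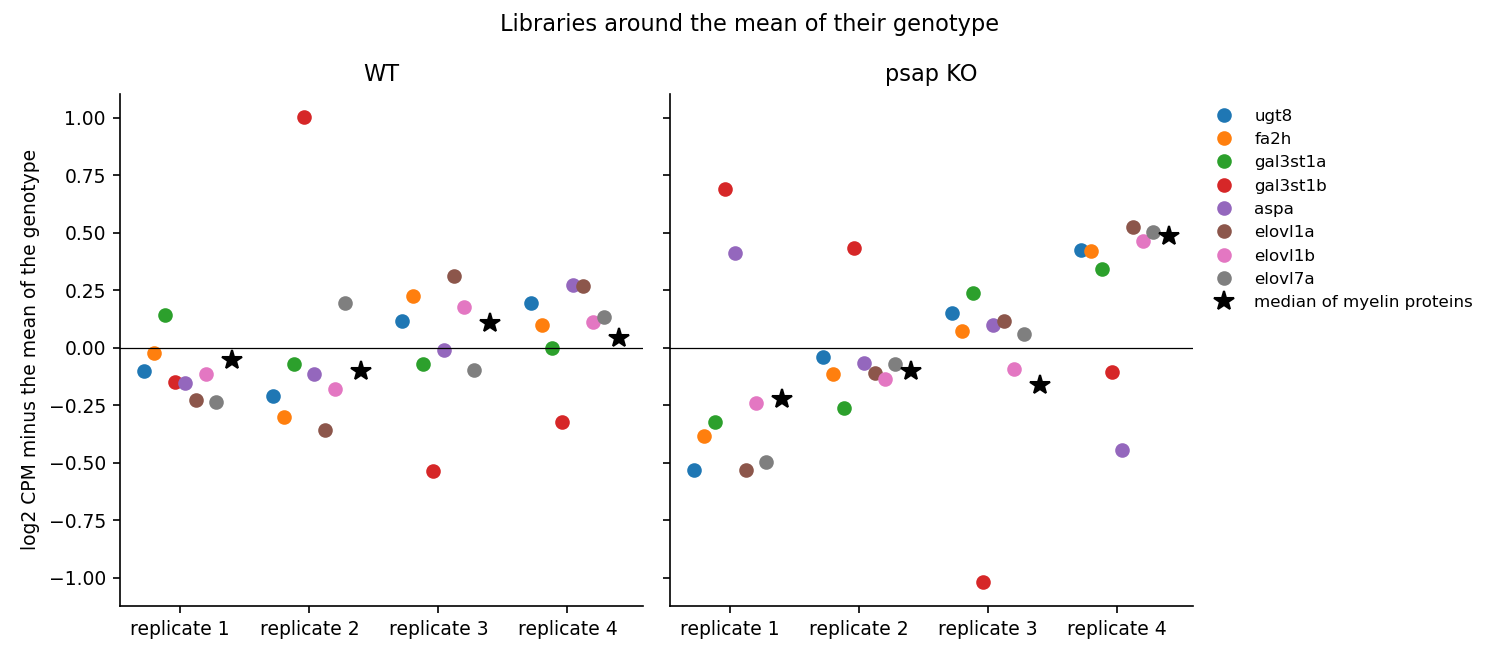
Log2 CPM of each enzyme gene minus the mean of its genotype (vertical axis) in the WT (left) and *psap* KO (right) libraries. Black stars give the median of 20 myelin protein genes. In *psap* KO replicate 4, 6 enzyme genes lie above 0 with the star, and *aspa* (-0.44) and *gal3st1b* (-0.10) lie below.

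A ratio of 2 genes within a library does not depend on how the library is scaled. It depends on the lengths of both transcripts, so only its difference between libraries can be read. The ratios of all 28 pairs of enzyme genes were computed after the values above had been seen, and 7 of them did not overlap between the genotypes. The share among pairs of other genes was not computed. As 40.3% of single genes tested did not overlap, this count is no result about the enzymes. The smallest p of the exact permutation test over 4 and 4 libraries was 0.0286, the smallest it allows. Adjusted over the 28 ratios it was 0.114, so none passed, and 7 ratios at that p could not have passed. Of the 7, 4 involved *elovl1b* and 3 involved *fa2h*, and 1 of these held both. *ugt8* was also among the 7, with *fa2h*, with *elovl1b* and with *elovl1a*. Its ratio to *elovl1a* held neither *elovl1b* nor *fa2h*. The ratio of *ugt8* to *fa2h* was 1.42, 1.6, 1.39 and 1.6 in WT libraries. In *psap* KO libraries it was 1.84, 2.14, 2.15 and 2.04. Every *psap* KO library thus had more *ugt8* per *fa2h* than any WT library, although neither gene passed the test on its own. The mean ratio was 1.502 ± 0.113 in WT and 2.04 ± 0.144 in *psap* KO brains (SD, n=4 each). The ratio of *fa2h* to *elovl1b* was 1.03 ± 0.0648 in WT and 0.527 ± 0.0479 in *psap* KO brains (SD, n=4 each). By contrast, the ratio of *ugt8* to *gal3st1a*, for successive steps to sulfatide, was 7.33 ± 1.13 in WT and 7.18 ± 0.941 in *psap* KO brains (SD, n=4 each). The log2 difference was -0.02 (exact permutation p = 0.914). This was not particular to successive steps, as *ugt8* to *aspa* differed by 0.0095 (exact permutation p = 0.971).

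The paralogs were compared in the same way. The log2 ratio of *elovl1a* to *elovl1b* was -3.74 ± 0.169 in WT and -4.57 ± 0.211 in *psap* KO libraries (SD, n=4 each), a difference of -0.83 (exact permutation p = 0.0286, and 0.0571 adjusted over the 2 paralog pairs, which does not pass 0.05). The smallest p the test allows, reached by a single pair, could not have passed after this adjustment. All 4 *psap* KO libraries lay below all WT libraries, at -4.86, -4.54, -4.36 and -4.51 against -3.86, -3.92, -3.61 and -3.59. For *gal3st1a* to *gal3st1b* the difference was -0.34 (exact permutation p = 0.657), with a spread set by the few counts of *gal3st1b*. How the counting divided reads that match both paralogs is not given in the sources used here.

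**Figure D4:**
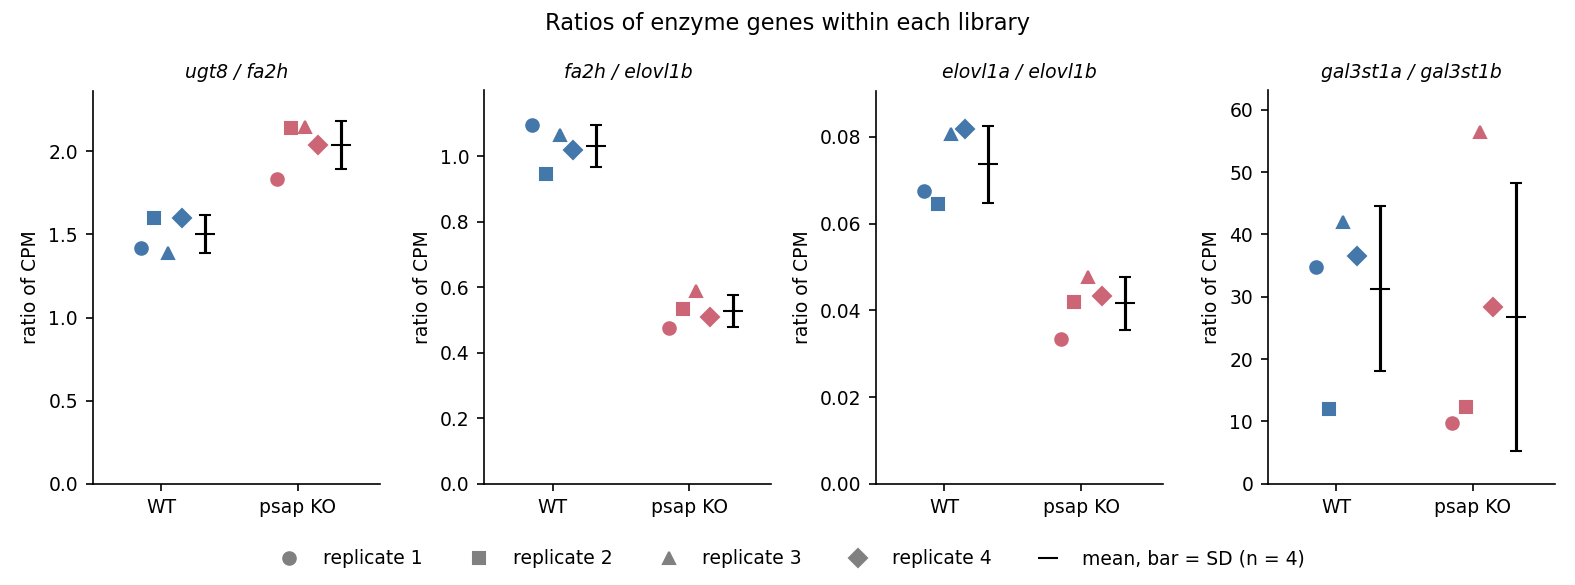
Ratios of CPM of 2 enzyme genes within each library (vertical axes from 0), for WT (blue) and *psap* KO (red) libraries, with mean and SD. The genotypes are apart for *ugt8* to *fa2h* (1.39 to 1.6 against 1.84 to 2.15), *fa2h* to *elovl1b* and *elovl1a* to *elovl1b*, and they overlap for *gal3st1a* to *gal3st1b*.

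The enzyme genes were next set against lists of myelin protein and OL lineage genes, not all of which are restricted to myelin-forming cells. Relative to the median of 20 tested myelin protein genes in the same library, *fa2h* was 0.12 ± 0.141 on the log2 scale in WT and -0.45 ± 0.168 in *psap* KO libraries (SD, n=4 each), a difference of -0.56. *elovl1b* was 0.08 ± 0.0823 in WT and 0.48 ± 0.0472 in *psap* KO libraries (SD, n=4 each), a difference of 0.40. Neither gene overlapped between the genotypes on this measure (exact permutation p = 0.0286 each, and 0.114 adjusted over the 8 genes). The other 6 overlapped, with differences from -0.42 for *elovl1a* to 0.24 for *gal3st1b*. Against the median of 12 lineage regulators the differences were -0.53 for *fa2h* and 0.44 for *elovl1b* (exact permutation p = 0.0286 each, 0.114 adjusted). With either list this was the smallest p the test allows, and *fa2h* and *elovl1b* alone could not have passed after adjustment. The medians were themselves higher in *psap* KO libraries, at 6.06 to 6.77 log2 CPM against 5.83 to 6.03 for the myelin proteins. For the regulators they were 4.63 to 4.98 against 4.37 to 4.56. Each median was taken over levels, so the genes of middle level set it in each library. For the myelin proteins these were *cnp* (63.5 CPM) and *cldnk* (53.9 CPM) in WT replicate 1. In *psap* KO replicate 4 they were *cldnk* and *cd9b* (109 CPM each). The 20 genes themselves had a median log2 fold change of 0.06, and the 12 regulators had one of -0.11. Each difference therefore combines the change of the enzyme gene (-0.19 for *fa2h* and 0.78 for *elovl1b* alone) with that of such a median. The unadjusted p rose to 0.0571 (exact permutation test) for *fa2h* without WT replicate 3 or 4 with either list. It also did so for *fa2h* without WT replicate 1 and for *elovl1b* without *psap* KO replicate 4, both with the regulators. With 1 library left out the test has fewer arrangements, so its p moves in coarse steps. Over all such omissions *fa2h* differed by -0.64 to -0.51 from the myelin proteins and by -0.60 to -0.45 from the regulators. *elovl1b* differed from the regulators by 0.35 to 0.50. With the mean of the list in place of the median, *fa2h* differed by -0.17 from the myelin proteins (exact permutation p = 0.143) and by -0.29 from the regulators (exact permutation p = 0.171), neither of which passed.

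The reference genes themselves moved in both directions. Of the 20 myelin protein genes 5 passed as higher and 4 as lower, with a median log2 fold change of 0.06. Over all genes tested, 22.3% were higher and 18.5% were lower. Beside these shares, the counts of calls are no result about the myelin protein genes or the lineage regulators as groups. *mbpa*, for myelin basic protein, fell from 6323 ± 699 to 1293 ± 272 CPM (SD, n=4 each; log2 fold change -2.29, adjusted p = 7.3e-07 in edgeR's test), while its paralog *mbpb* rose from 134 ± 22.6 to 356 ± 142 CPM (log2 fold change 1.41, adjusted p = 0.00548 in the same test). *cnp* rose with a log2 fold change of 0.40. *mag* (0.45) passed as higher, but not without WT replicate 1, 2 or 4 (adjusted p = 0.0694, 0.0641 and 0.0622 in edgeR's test). *plp1a* (0.45) passed narrowly, at an adjusted p of 0.0462 in the same test. Its call was lost with RLE scaling, with no filter on low counts, with limma-voom and without any single library other than *psap* KO replicate 1 (adjusted p = 0.0509 to 0.127). *nfasca*, for the axonal and glial adhesion protein neurofascin, and *cntn1b*, for a contactin, fell with -0.48 and -0.77. The count of higher myelin protein genes was 3 without WT replicate 1, 3 or 4 or *psap* KO replicate 2 and 2 without WT replicate 2, and that of lower genes was 7 with a term for the replicate number. *plp1b*, for the major proteolipid of myelin, had a value of -0.39 and did not pass. Of 12 lineage regulators 3 were higher, *nkx2.2a* (0.69), *olig2* (0.57) and *sox10* (0.49), and 3 passed as lower, *myrf* (-0.27), which drives myelin genes, *znf536* (-0.19) and *zeb2b* (-0.37). The lower calls depended on single libraries. None was left without WT replicate 1 or *psap* KO replicate 1, and 1 without WT replicate 2 or *psap* KO replicate 3 or 4, with upper-quartile scaling or with a mean count of at least 50. The call of *myrf* was lost without replicate 1 of either genotype or *psap* KO replicate 3 (adjusted p = 0.0502 to 0.0749 in edgeR's test). Of 8 genes of OL precursors 3 were higher, *pdgfra* (0.42), *bcan* (0.34) and *ptprz1b* (0.28), 1 was lower, *lhfpl3* (-0.34), and *cspg4*, at -0.23, did not pass. Of 10 Schwann cell genes, which include *sox10* and the shared myelin gene *mpz*, 4 were higher and 1 was lower.

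Around these enzymes stand the genes that supply them or break down their products. Of 80 tested in 7 lists, 25 (31.2%) were higher and 11 (13.8%) were lower, beside 22.3% and 18.5% of all genes tested. For the elongation of very long chain fatty acids, 3 of 13 further genes passed as higher and 3 as lower, with a median log2 fold change of 0.01. *elovl2* fell from 52.9 ± 3.64 to 40.0 ± 5.78 CPM and *elovl4a* from 90.3 ± 3.58 to 77.6 ± 3.34 CPM (SD, n=4 each), unlike *elovl1b*. Of these, Elovl2 elongates polyunsaturated fatty acids in vertebrates. *hsd17b12a*, for the ketoreductase of the elongation cycle, fell with a log2 fold change of -0.85 (SE 0.104, adjusted p = 4.0e-05 in edgeR's test), and its paralog *hsd17b12b* had 0.11 and did not pass. The higher genes were *elovl8b* (0.78), *hacd1* (0.53) and *hacd2* (0.28), and their calls depended on single libraries. None of them was left without WT replicate 1, 2 or 3 or *psap* KO replicate 2 or 4, and 1 without WT replicate 4 or *psap* KO replicate 3. *hacd2*, for a dehydratase of the elongation cycle, passed with all libraries (adjusted p = 0.0384 in edgeR's test) and, with 1 left out, only without *psap* KO replicate 1.

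The supply of ceramide, the substrate of Ugt8, held changes in both directions, with 6 of 15 genes higher, 4 lower and a median log2 fold change of 0.15. *cers2b* and *cers2a*, for the ceramide synthase that in mammals uses very long acyl chains, rose with 0.84 (SE 0.111, adjusted p = 7.5e-05 in edgeR's test) and 0.32. Of the other ceramide synthase genes, *cers1* (-0.30), *cers4b* (-0.34) and *cers6* (-0.43) fell, and *cers4a* (-0.11) and *cers5* (0.15) did not pass. The genes for the serine palmitoyltransferase that starts the pathway also divided. *sptlc1*, *sptlc2a* and *sptlc3*, for its large subunits, rose with 0.45, 0.59 and 1.68, *sptssb*, for a small subunit, fell with -1.04, and *sptlc2b* (0.096) and *sptssa* (0.15) did not pass. The levels of *sptlc3* were low, at 1.25 ± 0.507 and 3.99 ± 0.605 CPM (SD, n=4 each).

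Of the 12 genes for galactose and sulfate donors, 4 were higher and 8 did not pass, with a median of 0.22. The higher genes were *galk1* (log2 fold change 1.13) and *galk2* (1.502), for galactose and *N*-acetylgalactosamine kinases, *galt* (0.74), for the uridylyltransferase, and *gale* (0.47), for the epimerase. The call of *gale* was lost without WT replicate 1 or *psap* KO replicate 2 or 4 (adjusted p = 0.0501 to 0.0575 in edgeR's test). Of the further genes for UDP-sugars, *ugp2a* (-0.52), *ugp2b* (0.17) and *slc35a2* (0.055), which encodes the transporter of UDP-galactose, did not pass, and *ugp2a* passed as lower without *psap* KO replicate 2 (adjusted p = 0.047 in the same test). The genes for the sulfate donor of Gal3st1 (*papss1*, *papss2a*, *papss2b*, *slc35b2* and *slc35b3*) did not pass in either direction with all libraries. Of these, *papss1* passed as lower without *psap* KO replicate 4, *papss2a* as higher without *psap* KO replicate 2 or with upper-quartile scaling, and *papss2b* as higher without *psap* KO replicate 1.

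The list named galactolipid breakdown had the highest median of the 7 pathway lists, 0.79, and 5 of its 6 genes were higher. Not all of its genes act on galactosylceramide or sulfatide. It includes *phyh*, which rose (0.40), and *hacl1*, which did not pass (0.061). Both encode peroxisomal enzymes that act on fatty acids and not on the galactolipids themselves. *galca* and *galcb*, for the galactosylceramidase that removes the galactose added by Ugt8, rose from 9.57 ± 0.384 to 19.3 ± 2.29 CPM and from 11.7 ± 1.25 to 26.1 ± 2.52 CPM (SD, n=4 each), with log2 fold changes of 1.01 and 1.158. *arsa*, for the sulfatase of sulfatide, rose with 0.61 and *glb1*, for lysosomal β-galactosidase, with 0.97. These lysosomal genes are also active in microglia, whose markers rose more, with a median log2 fold change of 2.2, and the part of those cells was not tested.

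Beside *aspa*, the genes for the supply of NAA and acetate gave 1 higher (2 without WT replicate 2 or with the replicate term), 2 lower and 5 not called. *nat8l*, for the neuronal synthase of NAA, the substrate of Aspa, fell from 438 ± 28.2 to 283 ± 38.7 CPM (SD, n=4 each; log2 fold change -0.63, SE 0.0936, adjusted p = 0.000197 in edgeR's test). *slc25a12*, for the mitochondrial aspartate and glutamate carrier, fell with -0.34, and 13 of 16 neuronal markers fell as well. *acss1*, for a mitochondrial acetyl-CoA synthetase, rose with 1.43.

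Of 18 genes of fatty acid synthesis and desaturation 5 were higher and 2 were lower, with a median of 0.19. *acsl4b* (0.89) and *acsl1b* (1.08), for acyl-CoA synthetases, *acacb* (0.95), for an acetyl-CoA carboxylase, and *scd* (0.80), for a stearoyl-CoA desaturase, rose. The lower genes were *fads2* (-0.96), which fell from 102 ± 17.4 to 52.3 ± 12.8 CPM (SD, n=4 each), and *acsl3a* (-0.50). The lower count was 1 without WT replicate 3 or 4 or *psap* KO replicate 1 or 3. Of 8 genes for plasmalogens, ether lipids that are abundant in myelin, *tmem189* rose (0.64), the desaturase that forms their vinyl ether bond, and the other 7 did not pass. For *pex7* the value was 0.32 and lay at the threshold (adjusted p = 0.0501 in edgeR's test). It passed with upper-quartile scaling, a mean count of at least 50, limma-voom or the replicate term, and without WT replicate 4 or *psap* KO replicate 2 (adjusted p = 0.0328 to 0.0482). For *dhrs7b* and *gnpat* the values were 0.27 and 0.17.

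**Figure D5:**
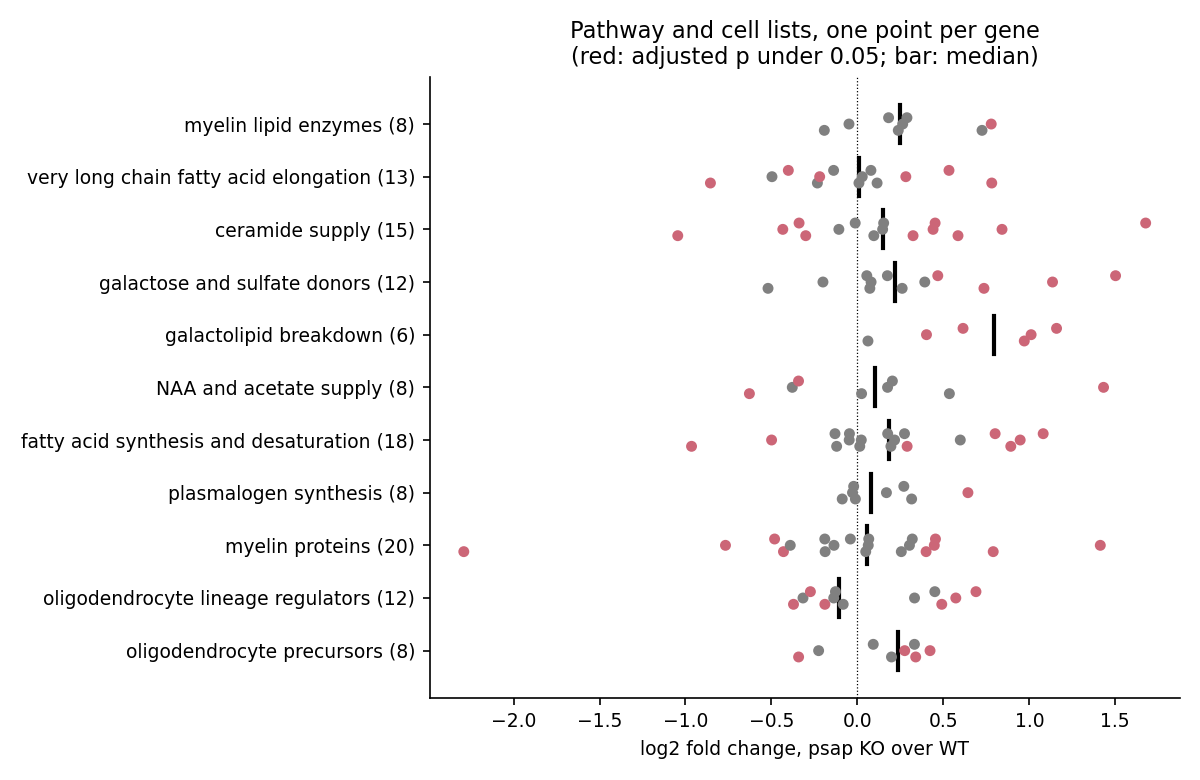
Log2 fold change (*psap* KO over WT) (horizontal axis), with a point for each tested gene of a list, the number of genes in parentheses and the median as a bar. Red points have an adjusted p under 0.05. The enzyme genes lie between -0.19 and 0.78 with 1 red point, and the list of galactolipid breakdown has 5 red points of 6.

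The genes whose profile over the 8 libraries was closest to that of an enzyme gene were found among 11126 named genes (average log2 CPM at or above 3), as the smallest root mean square (RMS) difference of centred log2 CPM. For *elovl1b* they were *tuba8l3*, a tubulin gene, *rac1a*, for a small GTPase, and *bmp16*, with RMS differences of 0.0713, 0.0747 and 0.0764 and log2 fold changes of 0.83, 0.80 and 0.86. For *elovl1a* the closest was *cd59*, for a membrane protein abundant in zebrafish myelin, at 0.0761. It was followed by *ndufa11* (0.140) and *mrps25* (0.143). For *gal3st1a* the closest were *cpped1* (0.0994), *elp5* (0.107) and *adsl* (0.107). Those of *elovl7a* were *phkg2* (0.111), *mrps21* (0.113) and *pin4* (0.115). For *fa2h* the closest were *ndufa9a* (0.0943), *cd9a* (0.0943), for a tetraspanin, and *ndufs3* (0.0974), and both *nduf* genes encode subunits of respiratory complex I. For *ugt8* they were *hoxb5a* (0.0833), *tbl2* (0.0937) and *ppp1r14aa* (0.110). For *aspa* the closest was *grb10b*, for a signaling adaptor, at 0.0966, followed by *pms1* (0.120) and *dbpb* (0.128). Among the enzyme genes, *fa2h* and *elovl1a* were the most alike, at 0.139. For *gal3st1b* the closest gene was at 0.383, farther than for any other enzyme gene.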

How the data were processed

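RNA of 4 WT and 4 *psap* KO libraries was depleted of ribosomal RNA and sequenced in pairs of reads. Per the labels and the study's methods, the authors used cutadapt 1.16 on reads freed of optical duplicates, STAR 2.6.1b for alignment and featureCounts 1.6.3 to assign reads to genes. The unit used here is the deposited raw count per gene. The deposited annotation gave names and positions. The authors' own comparison by DESeq2 1.22.2 (fold changes and p-values) and their normalized values were not used. Groups came from the sample titles, and all count columns matched a sample.

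The test was edgeR 4.0.16 (R 4.3.3) with TMM scaling, filterByExpr by genotype (1731 of 22871 genes left out), and a robust quasi-likelihood fit on genotype, with Benjamini-Hochberg adjustment over 21140 genes at 0.05. CPM use TMM factors and log2 CPM a prior count of 2. Ratios and relative levels were compared by exact two-sided permutation tests (70 arrangements). The scripts were tested on simulated data. The enzyme genes and all gene lists were chosen with earlier results of these data known. Genes named are the 8 enzymes, *psap*, of each pathway and OL list the 4 with the smallest p, the OL genes the study followed by qRT-PCR, and for each enzyme gene its closest profiles, for which clone names and symbols ending in a point and a digit were dropped. Other genes (*mbpb*, *cers1*, *cers2a*, *cers4a*, *cers4b*, *cers5*, *sptlc1*, *sptlc2b*, *sptssa*, *sptssb*, *elovl8b*, *hacd1*, *hsd17b12b*, the *ugp2*, *papss* and *slc35* genes, *phyh*, *hacl1*, *fads2*, *acsl3a*, *znf536*, *zeb2b* and *mpz*) were named after their values were seen.

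Alternatives were RLE and upper-quartile scaling, no filter and a mean count of at least 50, DESeq2 1.42.0, limma-voom (limma 3.58.1), a term for the replicate number, and each library left out. For ratios a prior count of 0.5, and for relative levels the mean of the list, were tried. Scaling to the myelin protein median and the 28 ratios were added after the data were seen.

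Replicate numbers come from the titles, and the methods, by which WT and KO samples were handled in turn, do not say that a number marks a day or a batch. Deviations of same-numbered libraries from their group means correlated at 0.125, 0.127, 0.173 and 0.248 over 17576 genes with a higher average count, and at 0.0575, 0.0705, 0.133 and 0.167 over all genes tested. On the first set they were treated as pairs, and on the second set 2 of them would have missed the limit used. Libraries of different numbers correlated at -0.165 (WT replicate 3 with *psap* KO replicate 1) to 0.102 (WT replicate 2 with *psap* KO replicate 1) on the first set. The highest of these is close to the values of the same-numbered replicates 1 and 2. The pairing entered only the alternatives by replicate number, and the main tests left it out. No library repeated another of its genotype within counting noise. The pools are biological replicates per the methods, and whether they came from separate clutches is not stated, so p-values measure the spread between these pools. The ratio of *elovl7a* to *elovl7b* was planned, and *elovl7b* was not analysed here. Promoter and protein sequences were not analysed here.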

Additional observations from a re-analysis of the deposited data

Results flagged for a closer look

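Within each genotype, 158 groups of 4 libraries (genes and ratios in both genotypes) were searched for a library far from the other 3, and 6 were found. Chance gives about 1 in 20 such groups. *gal3st1b* had 1.08 CPM in WT replicate 2, from 16 counts, and 0.308 to 0.432 CPM in the other WT libraries, from 7 or 8 counts. *elovl8b* had 0.540 CPM in WT replicate 2 and 1.12 to 1.19 CPM in the others of that genotype. *hacd1* had 3.72 CPM in WT replicate 4 and 2.36 to 2.48 CPM in the others. *galca* had 10.1 CPM in WT replicate 4 and 9.31 to 9.45 CPM in the others, all below the *psap* KO libraries. *cspg4* had 14.4 CPM in *psap* KO replicate 1 and 16.9 to 17.3 CPM in the others. *bcan* had 225 CPM in WT replicate 1, the library with the most skeletal muscle RNA, and 241 to 243 CPM in the others.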

How the results depend on the processing

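The call for *elovl1b* held under 15 of 16 alternatives, with log2 fold changes of 0.60 to 0.86, and was lost under the scaling to the myelin protein median (0.40, adjusted p = 0.0737 in edgeR's test). Under that scaling, chosen after the data were seen, 0 enzyme genes were higher and 1 was lower, *fa2h* (-0.56, adjusted p = 0.0167 in edgeR's test), 1888 of all genes and 11 pathway genes were higher, against 4720 and 25, and 16 pathway genes were lower, against 11. Of the other single genes followed, *plp1b* (-0.77), *cspg4* (-0.56) and *papss1* (-0.56) also passed as lower there (adjusted p = 0.00128, 0.0237 and 0.0188 in edgeR's test). Among the myelin protein genes 8 were lower, against 4 in the main test. The myelin protein median was set by the genes of middle level, and the 20 genes themselves had a median log2 fold change of 0.06. Since the myelin protein median was higher in *psap* KO libraries, the scaling moved the median log2 fold change of all genes to -0.32. It turned the sign of *ugt8* (-0.11), *gal3st1a* (-0.084), *aspa* (-0.040), *elovl7a* (-0.22), *hacd2* (-0.071), *hsd17b12b* (-0.24), *sptlc2b* (-0.22), *sptssa* (-0.18), *cers2a* (-0.032), *cers5* (-0.15), *ugp2b* (-0.17), *slc35a2* (-0.28), *papss2b* (-0.12), *slc35b2* (-0.26), *slc35b3* (-0.24), *slc25a1a* (-0.14), *gnpat* (-0.18), *pex7* (-0.030), *dhrs7b* (-0.090), *ptprz1b* (-0.047) and *psap* (-0.21), none past the threshold. It also ended the calls of *elovl8b* (0.46), *hacd1* (0.19), *sptlc1* (0.12), *sptlc2a* (0.24), *gale* (0.11), *galt* (0.40), *arsa* (0.27), *scd* (0.48), *tmem189* (0.30), *plp1a* (0.09), *mag* (0.07), *cnp* (0.05), *olig2* (0.21), *sox10* (0.13), *nkx2.2a* (0.34), *pdgfra* (0.06) and *bcan* (0.01).

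With single libraries left out, 1 to 3 enzyme genes were higher and 0 were lower. *elovl1a* took the opposite sign without WT replicate 3 or 4 or *psap* KO replicate 1 or 2 (range with 1 library left out -0.26 to 0.10), *elovl7a* without *psap* KO replicate 4 (range -0.017 to 0.32), and *slc35b3* without WT replicate 1 or *psap* KO replicate 3 (range -0.035 to 0.17).

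With the replicate block no enzyme gene changed its call. Of the single genes followed under the alternatives, *slc25a1a* (0.21), *pex7* (0.32) and *plp1b* (-0.43) passed with it, and *elovl8b* (0.80) did not. The log2 ratio of *elovl1a* to *elovl1b* differed by -0.83 over the pairs (exact sign-flip p = 0.125, the smallest that 4 pairs allow), and so did not pass; the same smallest p holds for the ratio of *ugt8* to *fa2h* and for *fa2h* and *elovl1b* against the 2 reference lists.

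Against the mean of the myelin proteins in place of the median, *ugt8* (0.27), *gal3st1a* (0.30), *aspa* (0.26) and *elovl7a* (0.18) took the opposite sign, and against the mean of the regulators they were at 0.15, 0.18, 0.14 and 0.056, also with the sign turned. With 1 library left out, *ugt8* ranged from -0.16 to 0.037 and *gal3st1a* from -0.15 to 0.023 against the regulators. Against the myelin proteins and the regulators, *gal3st1b* ranged from -0.062 to 0.62 and from -0.0049 to 0.65, and *aspa* from -0.35 to 0.18 and from -0.29 to 0.12. None of these passed before or after. Depth limits *gal3st1b*, with at most 25 counts in a library.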
